A study of Mus musculus with 12 samples.

Results

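The levels of 10 regulatory genes of the early male germ line were followed across 12 arrays of whole mouse testis. They are Zbtb16, Neurog3, Nanos2, Nanos3, Lin28a, Sall4, Utf1, Sohlh1, Sohlh2 and Dppa4, taken by name, with every probe that the platform annotation assigns to them, 19 of the 45281 probes on the array. Of these, 13 probes were detected on every array, 1 on 4 arrays and 5 on none, which left 9 genes among the 11076 genes tested. Sohlh2 was the gene without a detected probe.

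Total RNA came from testes of 10-day-old mice. SC-RbKO testes (4 arrays, replicates 1 to 4) had Rb1, the gene of the retinoblastoma protein, deleted in Sertoli cells, and SC-Rb+/- testes (3 arrays, replicates 5 to 7) are the heterozygotes of the series. Wild type testes (5 arrays, replicates 8 to 12) were the controls. Deletion came from Cre recombinase under the anti-Müllerian hormone (AMH) promoter, which acts in Sertoli cells, crossed to floxed Rb1, so germ cells, in which these regulators work, were not the targeted cells. The labels leave unsaid whether the wild type mice carried Cre or a floxed allele, and whether each RNA came from a separate mouse, so a p-value here reflects only how these 12 samples spread, which may be technical.

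Spermatogonia are the mitotic germ cells on the wall of the seminiferous tubule. Undifferentiated spermatogonia hold the stem cells and their transit-amplifying progeny, and are kept in that state by transcription factors such as ZBTB16 and SALL4 and by RNA-binding proteins such as NANOS2 and LIN28A. Progenitors that express NEUROG3 and NANOS3 are prone to differentiate, and the basic helix-loop-helix (bHLH) factors SOHLH1 and SOHLH2 drive the step to KIT-positive differentiating spermatogonia. Sertoli cells supply the signals that set this balance.

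Neurog3, Sohlh1 and Sohlh2 encode bHLH proteins, a class that binds E-boxes, and their promoters are shown so that the motif this class reads can be seen in the genes that encode it. The sequences are those of RefSeq on GRCm38.p6, from 250 bases before to 50 after the gene's start, 5′ to 3′ on the gene's strand, with the E-box CANNTG in capitals. They lie at chr10:62132840-62133139 (plus strand), chr2:25847199-25847498 (minus strand) and chr3:55181794-55182093 (plus strand).
Neurog3: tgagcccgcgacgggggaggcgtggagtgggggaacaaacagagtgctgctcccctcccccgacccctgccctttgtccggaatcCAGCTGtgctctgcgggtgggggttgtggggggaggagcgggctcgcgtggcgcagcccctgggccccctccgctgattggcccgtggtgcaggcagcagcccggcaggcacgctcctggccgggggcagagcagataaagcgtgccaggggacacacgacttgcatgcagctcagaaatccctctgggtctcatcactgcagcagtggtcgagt
Sohlh1: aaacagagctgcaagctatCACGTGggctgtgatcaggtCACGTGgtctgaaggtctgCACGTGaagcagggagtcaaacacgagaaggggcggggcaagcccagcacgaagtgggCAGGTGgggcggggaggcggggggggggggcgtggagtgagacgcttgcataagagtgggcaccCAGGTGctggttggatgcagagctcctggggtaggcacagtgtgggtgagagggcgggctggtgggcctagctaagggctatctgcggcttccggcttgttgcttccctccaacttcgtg
Sohlh2: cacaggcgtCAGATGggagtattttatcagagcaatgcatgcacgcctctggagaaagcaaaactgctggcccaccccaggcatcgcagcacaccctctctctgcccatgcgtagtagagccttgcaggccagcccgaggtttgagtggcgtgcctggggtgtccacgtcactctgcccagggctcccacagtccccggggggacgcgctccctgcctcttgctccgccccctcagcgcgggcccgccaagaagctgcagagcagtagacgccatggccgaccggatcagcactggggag
The Neurog3 window held 1 E-box, the Sohlh1 window 5 and the Sohlh2 window 1. Among the 7 members with a promoter in the table, 4 held at least 1, as did 72.3 percent of all 32851 promoters of this length. The E2F-like motif TTTNNCGC, searched on both strands because the retinoblastoma protein binds E2F factors, was in 0 of the 7 and in 5.17 percent of all promoters. The pattern CANNTG is its own reverse complement, so a search of 1 strand finds every match. A match describes letters in a window and is not evidence of binding.

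Each array detected 39.3 to 43.7 percent of its probes, with a median intensity before normalization of 52.2 to 60.2. A level is the log2 normalized intensity of a gene's brightest detected probe, and a difference is on the log2 scale. Testicular markers, named as a check of the tissue, were present: Sox9, a Sertoli cell transcription factor, read 12.54 to 13.02 and Dazl, a germ cell RNA-binding protein, 11.12 to 11.90. Rb1 itself read 9.26, 8.65, 8.74 and 8.61 in SC-RbKO testes, 8.78, 9.15 and 9.19 in SC-Rb+/- testes, and 9.19, 9.31, 9.04, 8.83 and 8.99 in wild type testes, which overlapped. Whole testis also holds cells without the deletion, and the place of the probe relative to the deleted part was not analysed here, so this does not check the labels. SC-Rb+/- 6, SC-Rb+/- 7 and wild type 12 stood apart in meiotic transcripts: the mean of 14 measured spermatocyte markers, relative to the wild type mean, was 0.95 in SC-Rb+/- 7, -1.02 in SC-Rb+/- 6 and 0.81 in wild type 12, and between -0.33 and 0.05 in the rest. Sertoli cell markers (19 measured of 24 listed) spanned -0.06 to 0.02 in SC-RbKO, -0.18 to 0.00 in SC-Rb+/- and -0.13 to 0.14 in wild type testes. In bulk RNA, fewer cells of a type and less RNA per cell cannot be told apart.

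Against wild type, no regulator passed correction over the whole table in either genotype, and 3 of the 9 had unadjusted p-values under 0.05 in at least 1 of the 3 comparisons, as did 14.9 percent of all genes. In SC-RbKO testes Dppa4 and Neurog3 read lower than in wild type. In SC-Rb+/- testes Zbtb16 read higher than in wild type. The remaining 6 genes had no unadjusted p under 0.05 on their brightest probe.

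**Figure D1:**
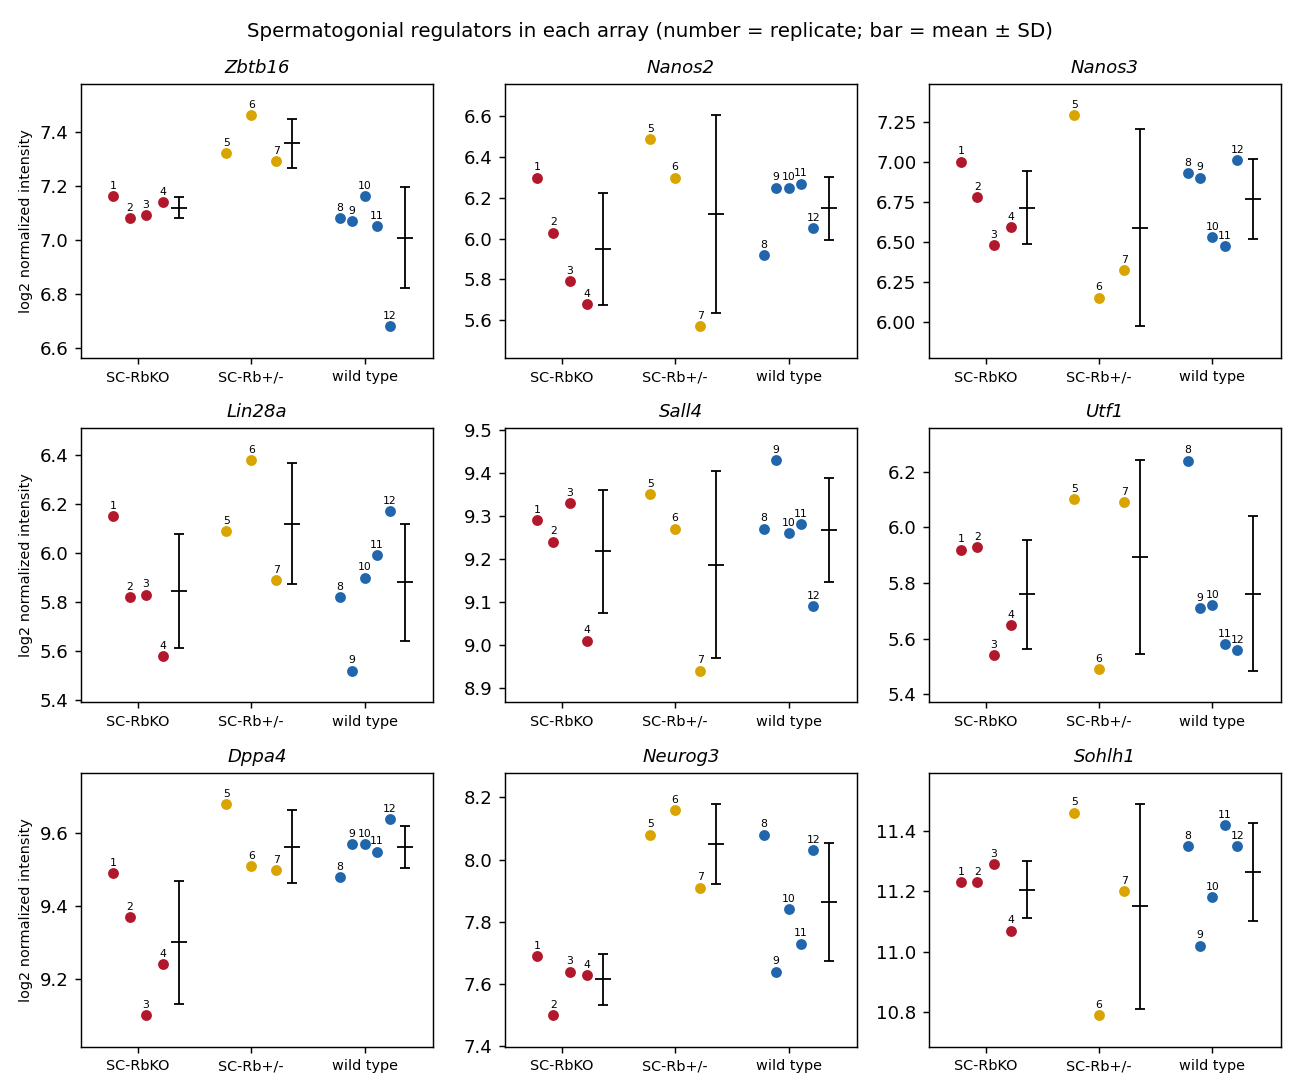
Log2 normalized intensity (y axis) of each of the 9 detected regulators in every array, grouped by genotype (x axis); points are arrays numbered by replicate and bars give mean ± SD. All 4 SC-RbKO points for Neurog3 (7.50 to 7.69) lie below all 3 SC-Rb+/- points (7.91 to 8.16), and all 3 SC-Rb+/- points for Zbtb16 (7.29 to 7.46) lie above every wild type point (6.68 to 7.16).

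Neurog3, a bHLH factor of progenitors that are moving towards differentiation, had the largest difference of the 9 genes in any of the 3 comparisons. It read 7.69, 7.50, 7.64 and 7.63 in SC-RbKO testes, 8.08, 8.16 and 7.91 in SC-Rb+/- testes, and 8.08, 7.64, 7.84, 7.73 and 8.03 in wild type testes. The SC-RbKO arrays were close together, lay below all SC-Rb+/- arrays, and overlapped the lower wild type arrays, with 2 of 4 below every wild type array. Against SC-Rb+/- the difference was -0.44 (95% interval -0.69 to -0.18), a level of 0.739 times, with a limma unadjusted p of 0.0027 and an adjusted p of 0.66. The exact two-sided permutation p of this difference was 0.029, the smallest that 4 arrays against 3 can give. Against wild type the difference was -0.25 (95% interval -0.47 to -0.02, limma unadjusted p = 0.033, adjusted p = 1.00, exact permutation p = 0.063). Its unadjusted p stayed under 0.05 in 18 of 25 alternatives and was lost without SC-RbKO 2, 3 or 4, without wild type 8 or 12, without the 3 arrays that stood apart, and with median scaling.

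Neurog3 in SC-Rb+/- against wild type testes differed by 0.19 (95% interval -0.06 to 0.44, limma unadjusted p = 0.12, adjusted p = 0.53). Column headers of the table before normalization carry array numbers of unstated meaning, which divide the arrays into a lower 6 (SC-RbKO 1 and 2, SC-Rb+/- 5 and 6, wild type 8 and 9) and an upper 6. Within the lower set the SC-RbKO difference from SC-Rb+/- was -0.52 (2 arrays against 2) and within the upper set -0.28 (2 against 1). The SC-RbKO difference from wild type was -0.26 and -0.23 in these sets (2 against 2, and 2 against 3), so Neurog3 ran the same way in both.

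Dppa4, a chromatin-associated protein of pluripotent and germ cells, read lower in SC-RbKO testes than in both other genotypes. It read 9.49, 9.37, 9.10 and 9.24 in SC-RbKO testes, 9.68, 9.51 and 9.50 in SC-Rb+/- testes, and 9.48, 9.57, 9.57, 9.55 and 9.64 in wild type testes. All SC-RbKO arrays but 1 lay below every wild type array, and SC-RbKO 1 lay just above the lowest of them. The difference from wild type was -0.26 (95% interval -0.45 to -0.06, limma unadjusted p = 0.013, adjusted p = 1.00, exact permutation p = 0.016). The difference from SC-Rb+/- was likewise -0.26 (95% interval -0.48 to -0.04, limma unadjusted p = 0.024, adjusted p = 0.66, exact permutation p = 0.057), and here the groups did not overlap.

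SC-Rb+/- and wild type testes had nearly the same Dppa4 mean, 9.56 ± 0.10 (SD, n = 3) and 9.56 ± 0.05 (n = 5). The 95% interval of that difference ran from -0.21 to 0.22. Within the lower and upper array sets the SC-RbKO difference from wild type was -0.09 and -0.41. Both were negative and their sizes differed, and the difference between the sets was not tested. The unadjusted p stayed under 0.05 in 23 of 25 alternatives. It was 0.058 without SC-RbKO 3, the lowest array (difference -0.19), and 0.053 with the mean of the probes (difference -0.20).

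Zbtb16, the zinc finger repressor also called PLZF that marks undifferentiated spermatogonia, read higher in SC-Rb+/- testes than in both other genotypes. It read 7.16, 7.08, 7.09 and 7.14 in SC-RbKO testes, 7.32, 7.46 and 7.29 in SC-Rb+/- testes, and 7.08, 7.07, 7.16, 7.05 and 6.68 in wild type testes. The SC-RbKO arrays lay within the wild type range, and wild type 12 was low. SC-Rb+/- differed from wild type by 0.35 (95% interval 0.12 to 0.58, limma unadjusted p = 0.0063, adjusted p = 0.50), or 0.27 without wild type 12. The exact two-sided permutation p was 0.018, the smallest that 3 arrays against 5 can give. Within the lower and upper array sets this difference was 0.31 (2 against 2) and 0.33 (1 against 3).

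SC-RbKO testes differed from SC-Rb+/- in Zbtb16 by -0.24 (95% interval -0.48 to 0.00, limma unadjusted p = 0.052, adjusted p = 0.66), again without overlap. Against wild type the SC-RbKO difference was 0.11 (95% interval -0.10 to 0.32). Zbtb16 and Neurog3 shared their highest array, SC-Rb+/- 6, and Zbtb16 had its lowest in wild type 12, where Neurog3 was at 8.03.

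How these counts stand against all genes was read from the same fits. At an adjusted p under 0.05 limma called 0 percent of the 11076 genes in each of the 3 comparisons, and 284 genes (SC-RbKO against wild type), 1082 (SC-Rb+/- against wild type) and 775 (SC-RbKO against SC-Rb+/-) had an unadjusted p under 0.05. For SC-RbKO against wild type, 2 of 9 regulators (Dppa4 and Neurog3) were below that unadjusted p, both lower. Of all genes 0.957 percent were so in that direction, 1.61 percent in the higher one and 2.56 percent in either. For SC-Rb+/- against wild type, 1 of 9 (Zbtb16) was, higher, where 3.67 percent of all genes were higher, 6.09 percent lower and 9.77 percent either. For SC-RbKO against SC-Rb+/-, 2 of 9 (Dppa4 and Neurog3) were, both lower, where 2.42 percent of all genes were lower, 4.58 percent higher and 7 percent either. Over the genotypes together (limma's F-test), Dppa4, Neurog3 and Zbtb16 were, beside 5.44 percent of all genes.

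Without SC-Rb+/- 5, limma called 173 genes in SC-Rb+/- against wild type and 62 in SC-RbKO against SC-Rb+/-, none of them a regulator. Groups did not overlap for 0 of 9 regulators in SC-RbKO against wild type, where 1.16 percent of all genes were higher and 0.776 percent lower without overlap. For SC-Rb+/- against wild type it was Zbtb16, higher, beside 1.02 percent of all genes higher and 1.66 percent lower. For SC-RbKO against SC-Rb+/- it was Dppa4, Neurog3 and Zbtb16, all lower, beside 2.31 percent lower and 2.93 percent higher. Differences above 0 were found for 2 of 9 regulators (50.5 percent of all genes), 5 of 9 (47.7 percent) and 3 of 9 (53 percent) in SC-RbKO against wild type, SC-Rb+/- against wild type and SC-RbKO against SC-Rb+/-. The genes were chosen with earlier results of these data known, so these counts describe them and are no independent evidence. The comparisons share arrays, and the low SC-RbKO values enter both comparisons of Neurog3 and Dppa4.

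**Figure D2:**
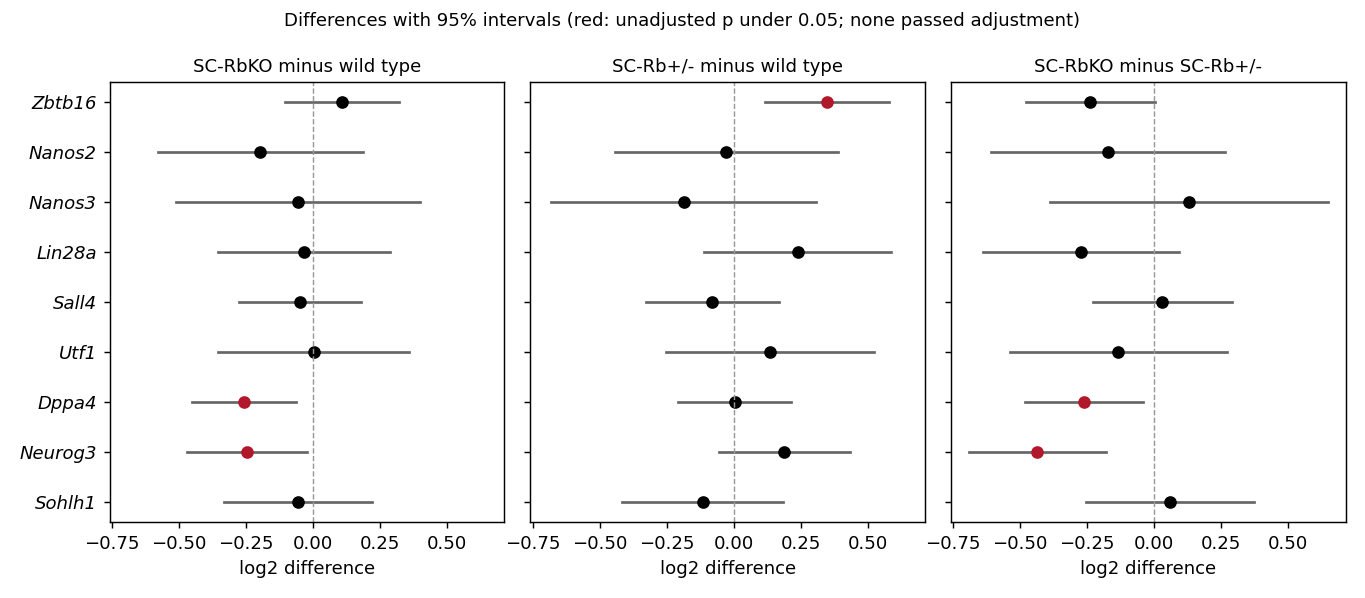
Log2 difference (x axis) of each regulator (rows) in the 3 comparisons, with points for the limma estimate and lines for its 95% interval. Intervals exclude 0 for Dppa4 and Neurog3 in SC-RbKO minus wild type, for Zbtb16 in SC-Rb+/- minus wild type, and for Dppa4 and Neurog3 in SC-RbKO minus SC-Rb+/-, and none of these passed adjustment over 11076 genes.

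Among the factors that hold the undifferentiated state, Nanos2, an RNA-binding repressor of differentiation in stem cells, spread widely within genotypes. It read 6.30, 6.03, 5.79 and 5.68 in SC-RbKO testes, 6.49, 6.30 and 5.57 in SC-Rb+/- testes, and 5.92, 6.25, 6.25, 6.27 and 6.05 in wild type testes. SC-RbKO 3 and 4 and SC-Rb+/- 7 were the lowest, all of the upper array set. The SC-RbKO difference from wild type was -0.20 (95% interval -0.58 to 0.19, limma unadjusted p = 0.29). It was 0.08 within the lower set and -0.45 within the upper, so the sets ran in opposite directions.

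Sall4, a zinc finger factor of stem cells and spermatogonia, was even across genotypes on its brighter probe. That probe read 9.29, 9.24, 9.33 and 9.01 in SC-RbKO testes, 9.35, 9.27 and 8.94 in SC-Rb+/- testes, and 9.27, 9.43, 9.26, 9.28 and 9.09 in wild type testes. SC-Rb+/- 7, SC-RbKO 4 and wild type 12 were the lowest. The SC-RbKO difference from wild type was -0.05 (95% interval -0.28 to 0.18), and the SC-Rb+/- difference was -0.08 (95% interval -0.33 to 0.17).

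Lin28a, an RNA-binding protein that blocks maturation of let-7 microRNAs, overlapped between genotypes. Its level was 5.85 ± 0.23 in SC-RbKO testes (n = 4), 6.12 ± 0.24 in SC-Rb+/- testes (n = 3) and 5.88 ± 0.24 in wild type testes (n = 5). SC-Rb+/- 6 was the highest array at 6.38 and wild type 9 the lowest at 5.52. SC-RbKO differed from wild type by -0.03 (95% interval -0.35 to 0.29), as 0.32 in the lower set and -0.32 in the upper, which are opposite directions. SC-Rb+/- differed from wild type by 0.24 (95% interval -0.11 to 0.59, limma unadjusted p = 0.16).

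Utf1, a chromatin-bound factor of pluripotent cells and early spermatogonia, read 5.76 ± 0.20 in SC-RbKO testes (n = 4), 5.89 ± 0.35 in SC-Rb+/- testes (n = 3) and 5.76 ± 0.28 in wild type testes (n = 5). Its wild type values were 5.56 to 5.72 on 4 arrays and 6.24 on wild type 8. SC-RbKO differed from wild type by 0.00 (95% interval -0.36 to 0.36), and SC-Rb+/- by 0.14 (95% interval -0.25 to 0.52). These intervals leave room for differences as large as that of Neurog3 in SC-RbKO against wild type (-0.25) and that of Zbtb16 in SC-Rb+/- against wild type (0.35).

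Nanos3, expressed in progenitors that are prone to differentiate, read 6.71 ± 0.23 in SC-RbKO testes (n = 4), 6.58 ± 0.61 in SC-Rb+/- testes (n = 3) and 6.77 ± 0.25 in wild type testes (n = 5). It had the largest within-genotype SD of the 9 genes, 0.36, where the median over all genes tested was 0.18. SC-Rb+/- 5 was the highest of all arrays at 7.29 and SC-Rb+/- 6 the lowest at 6.15. The SC-RbKO difference from wild type was -0.06 (95% interval -0.51 to 0.40) and the SC-Rb+/- difference -0.19 (95% interval -0.68 to 0.31). The SC-Rb+/- difference was 0.03 without SC-Rb+/- 6, -0.54 without SC-Rb+/- 5 (limma unadjusted p = 0.0099, adjusted p = 0.11) and -0.05 without SC-Rb+/- 7, so its size and direction changed with the SC-Rb+/- array left out.

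Sohlh1 read 11.21 ± 0.09 in SC-RbKO testes (n = 4), 11.15 ± 0.34 in SC-Rb+/- testes (n = 3) and 11.26 ± 0.16 in wild type testes (n = 5). SC-Rb+/- 6 was again the lowest array, at 10.79, against 11.46 in SC-Rb+/- 5. SC-RbKO differed from wild type by -0.06 (95% interval -0.33 to 0.22), and SC-Rb+/- by -0.12 (95% interval -0.42 to 0.19). Sohlh2, its partner bHLH factor, had 1 probe, which was not above background on any array, with detection p-values of 0.097 to 0.23 and unnormalized intensities of 51.9 to 63.1, so no level or difference is given.

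Genes with more than 1 detected probe allowed the readings to be compared within a gene. Both Sohlh1 probes read alike. The second read 10.95 ± 0.07 in SC-RbKO, 10.95 ± 0.28 in SC-Rb+/- and 11.09 ± 0.09 in wild type testes, and SC-Rb+/- 6 was its lowest array at 10.65. All 3 detected Dppa4 probes were lower in SC-RbKO than in wild type testes, with differences of -0.26 on the brightest, -0.20 on the second (limma unadjusted p = 0.31) and -0.13 on the third (limma unadjusted p = 0.15). The second Dppa4 probe was lowest in SC-Rb+/- 7 (5.64), SC-RbKO 4 (5.68) and wild type 12 (5.76), the same 3 arrays in which the brighter Sall4 probe was lowest.

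The Sall4 probes gave SC-RbKO differences from wild type of opposite sign, though the interval of the brighter one included 0. The second, assigned by the platform annotation to another RefSeq transcript than the brighter one, read 7.98, 7.82, 7.75 and 8.06 in SC-RbKO testes, 7.89, 8.03 and 7.53 in SC-Rb+/- testes, and 7.59, 7.76, 7.65, 7.76 and 7.50 in wild type testes. SC-RbKO 1, 2 and 4 lay above every wild type array. The SC-RbKO difference from wild type was 0.25 (95% interval 0.01 to 0.49, limma unadjusted p = 0.043, adjusted p = 1.00 over all detected probes), against -0.05 on the brighter probe. It was 0.23 and 0.27 within the lower and upper array sets.

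A second Lin28a probe was above background on all 3 SC-Rb+/- arrays, on 1 of 4 SC-RbKO arrays and on 0 of 5 wild type arrays. It read 4.74, 4.77, 5.18 and 4.83 in SC-RbKO testes, 5.23, 5.74 and 5.14 in SC-Rb+/- testes, and 4.96, 4.79, 4.91, 4.93 and 4.84 in wild type testes. This probe passed the filter through the SC-Rb+/- arrays, where it was high, so its values are given as a description, with no fold or test. The platform annotation gives no transcript for this second probe.

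**Figure D3:**
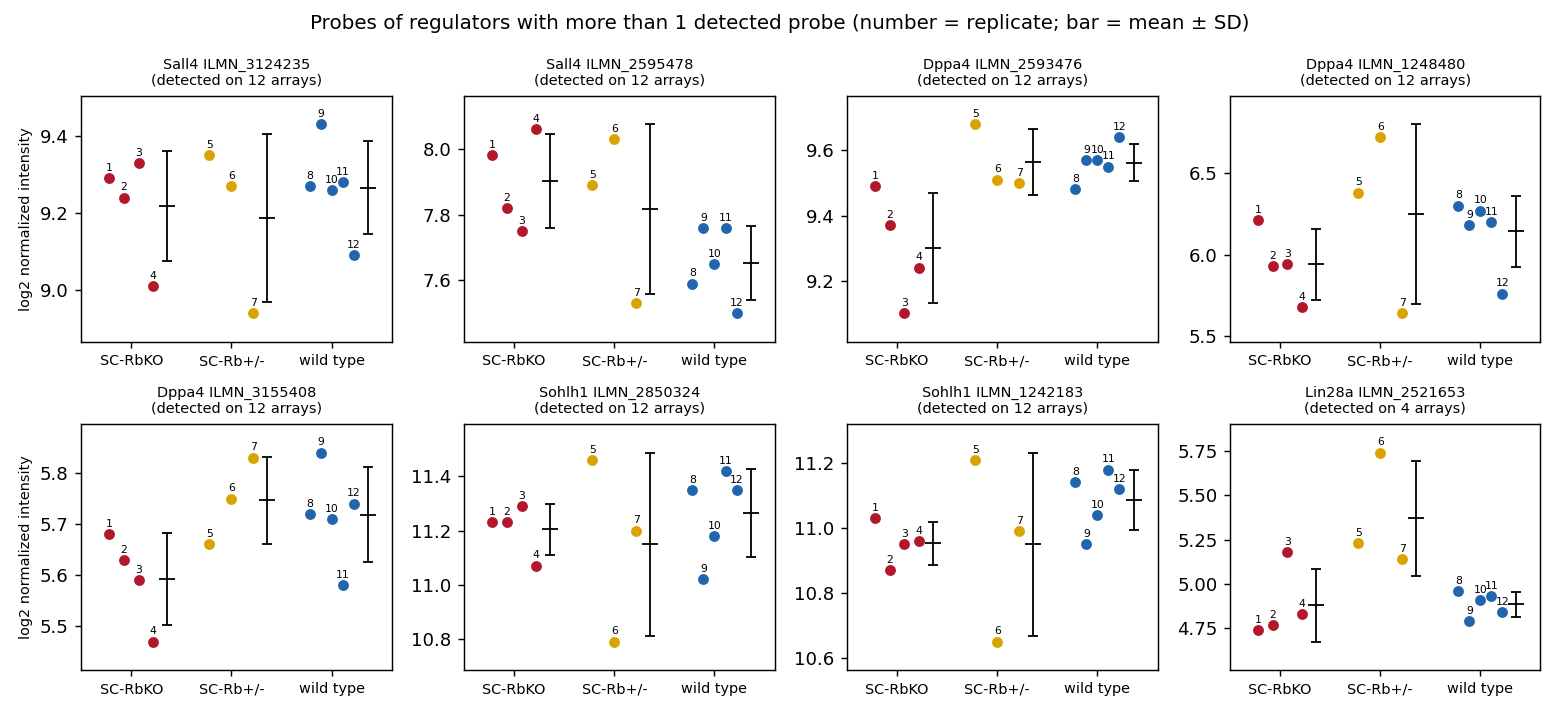
Log2 normalized intensity (y axis) by genotype (x axis) for 8 probes of Sall4, Dppa4, Sohlh1 and Lin28a, with points numbered by replicate and bars for mean ± SD. The second Sall4 probe reads 7.75 to 8.06 in SC-RbKO and 7.50 to 7.76 in wild type testes, while the brighter one overlaps throughout; all 3 Dppa4 probes have their SC-RbKO mean below the wild type mean.

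The regulators did not vary as 1 block across arrays. Over the 36 pairs of the 9 genes, Pearson correlations across 12 arrays ran from -0.45 to 0.71 with a median of 0.18, and 28 were above 0. The closest pair was Nanos2 and Sall4 at 0.71, followed by Neurog3 with Lin28a and Nanos2 with Dppa4 at 0.63 each, and Nanos3 with Sohlh1 at 0.56. These arrays share genotype, array set and tissue makeup, and the correlations are given as descriptions. The mean of the 9 genes, each taken from its own mean over all arrays, was lowest in SC-RbKO 4 (-0.20) and SC-RbKO 3 (-0.14) and highest in SC-Rb+/- 5 (0.27), while SC-RbKO 1 stood at 0.09.

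The genes whose values across the 12 arrays were most like that mean were Fgf8 (Pearson r 0.962), Hexim2 (0.906), Sema4c (0.902), Faim2 (0.888) and Prmt7 (0.853). They were picked as the highest r among the genes tested, leaving out those with clone or locus style names, and Fgf8, Sema4c and Faim2 were detected on only 5, 3 and 4 of 12 arrays. Fgf8, a fibroblast growth factor, read 5.24, 5.02, 4.80 and 4.76 in SC-RbKO testes, 5.51, 5.14 and 4.95 in SC-Rb+/- testes, and 5.13, 4.91, 5.04, 5.02 and 5.21 in wild type testes. Hexim2 and Prmt7 were detected on all arrays.

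**Figure D4:**
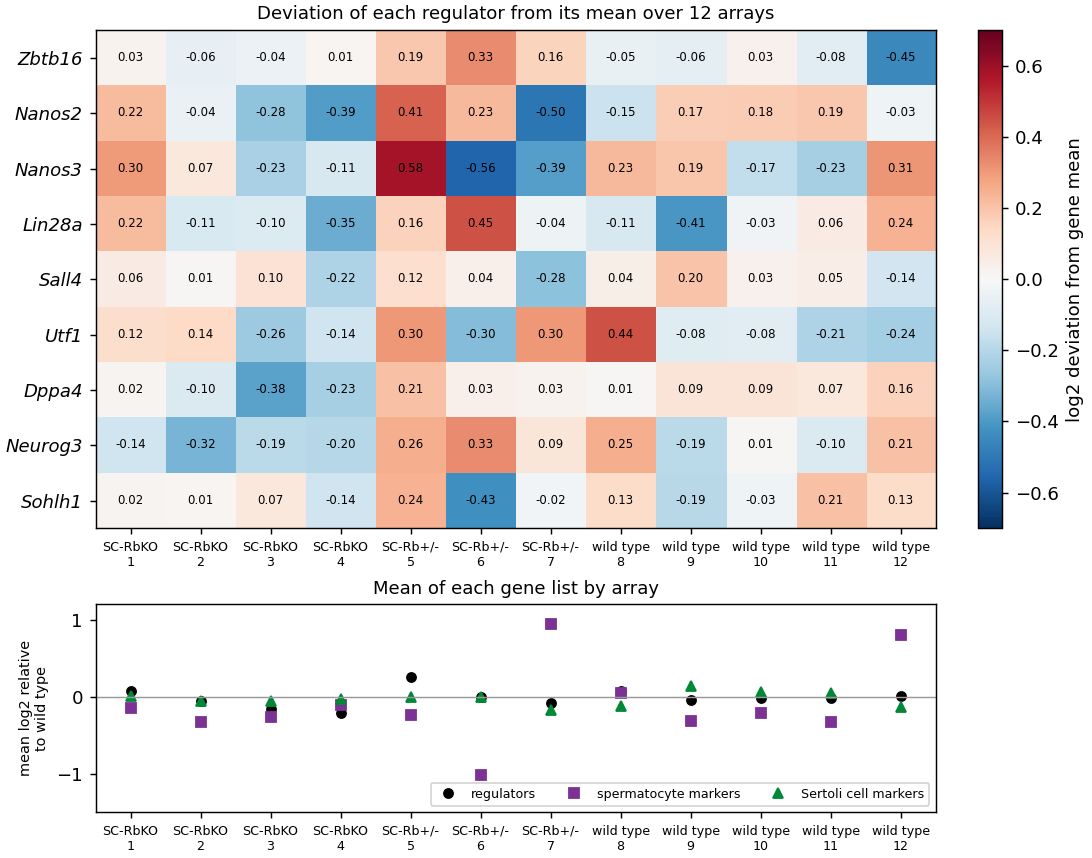
Upper panel: log2 deviation of each regulator (rows) from its mean over 12 arrays (columns), printed in each cell; lower panel: mean log2 level of the 9 regulators, 14 spermatocyte markers and 19 Sertoli cell markers relative to wild type (y axis) in each array (x axis). The spermatocyte markers reach 0.95 in SC-Rb+/- 7, 0.81 in wild type 12 and -1.02 in SC-Rb+/- 6, while the regulator means stay between -0.21 and 0.26.

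Other genes of undifferentiated spermatogonia were measured beside them: 22 of 30 listed genes were detected, the 10 regulators being left out of every list. In SC-RbKO against wild type testes 12 were above 0 and 10 below, with a median of 0.011, where the median over all genes was 0.002, and 0 passed correction. Rarg, a retinoic acid receptor of undifferentiated spermatogonia, read 6.58 ± 0.05 in SC-RbKO and 6.35 ± 0.16 in wild type testes, and the tetraspanin Cd9 10.02 ± 0.09 in SC-RbKO and 9.75 ± 0.08 in wild type testes (SD, n = 4 and n = 5). E-cadherin, Cdh1, read 5.14 ± 0.13 in SC-RbKO and 5.34 ± 0.10 in wild type testes, and Sox3, named after its values were seen, 6.23 ± 0.19 in SC-RbKO and 5.93 ± 0.24 in wild type testes. These 4 had unadjusted limma p-values of 0.023, 0.029, 0.041 and 0.042, each with an adjusted p of 1.00. Cdh1 lay near background, which limits its difference. In that comparison 2.56 percent of all genes had an unadjusted p under 0.05.

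In SC-Rb+/- against wild type testes 14 of these 22 genes were above 0, with a median of 0.069, where the median over all genes was -0.01. Of the 22, 4 had an unadjusted limma p under 0.05 there, in either direction, beside 9.77 percent of all genes. Each had an adjusted p of 0.50. Cdh1, 1 of these 4, read 4.92 ± 0.09 in SC-Rb+/- testes. The second Lin28a probe, at 4.79 to 4.96 in wild type testes, was above background on 0 of those 5 arrays. The Cdh1 difference may thus set signal against background, and its size and p are not given. Rarg read 6.67 ± 0.07 in SC-Rb+/- testes, with a difference of 0.33 (limma unadjusted p = 0.0054). Foxo1, a transcription factor of stem cell maintenance, read 9.79 ± 0.18 in SC-Rb+/- and 9.53 ± 0.05 in wild type testes (limma unadjusted p = 0.014). Id4, an inhibitor of bHLH factors that marks stem cells, read 6.03 ± 0.37 in SC-Rb+/- and 5.61 ± 0.20 in wild type testes (limma unadjusted p = 0.017). Foxo1 and Id4 were named after their values were seen. In SC-RbKO against SC-Rb+/-, 1 of the 22 was higher (Cdh1) and 1 lower (Id4) at an unadjusted limma p under 0.05. Of all genes 4.58 percent were higher and 2.42 percent lower. Id4 (5.43 ± 0.12 in SC-RbKO) differed by -0.61 (limma unadjusted p = 0.0026, adjusted p = 0.66). Cdh1 (5.14 ± 0.13 in SC-RbKO) was again set against an SC-Rb+/- level near background, so its size is not given.

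Genes of differentiating spermatogonia gave 8 measured of 13, with 4 above 0 and 4 below in SC-RbKO against wild type and a median of 0.029. Kit, the receptor whose appearance marks differentiation, read 10.83 ± 0.14 in SC-RbKO, 10.84 ± 0.17 in SC-Rb+/- and 10.66 ± 0.13 in wild type testes (SC-RbKO against wild type, limma unadjusted p = 0.13). The retinoic acid receptor gene Rara read 6.73 ± 0.07 in SC-RbKO and 6.47 ± 0.27 in wild type testes, and cyclin D2, Ccnd2, 10.06 ± 0.20 in SC-RbKO and 10.23 ± 0.43 in wild type testes. Of these 8 genes, 0 had an unadjusted p under 0.05 in SC-RbKO against wild type, where 2.56 percent of all genes did. In SC-Rb+/- against wild type 1 of the 8 did, lower, beside 6.09 percent of all genes.

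Pluripotency network genes gave 11 measured of 19, with 4 above 0 and 7 below and a median of -0.059 in SC-RbKO against wild type testes. Pou5f1, the pluripotency factor OCT4, read 6.08 ± 0.16 in SC-RbKO and 6.28 ± 0.35 in wild type testes, Tfap2c, a factor of germ cell specification, 6.13 ± 0.10 in SC-RbKO and 6.24 ± 0.21 in wild type testes, and Myc 5.05 ± 0.24 in SC-RbKO and 4.93 ± 0.26 in wild type testes. None of the 11 had an unadjusted p under 0.05 in any of the 3 comparisons, where 14.9 percent of all genes had one in at least 1.

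Proteins through which the regulators act, such as PUM, CNOT deadenylase and NuRD subunits, gave 19 measured of 26. In SC-RbKO against wild type testes 16 were above 0, with a median of 0.096, where 50.5 percent of all genes were above 0, and 0 passed correction. The NuRD subunit Mta1 read 7.45 ± 0.12 in SC-RbKO and 7.24 ± 0.15 in wild type testes (limma unadjusted p = 0.040). The deadenylase subunit Cnot3 read 9.83 ± 0.17 in SC-RbKO and 9.62 ± 0.18 in wild type testes, and the NuRD helicase Chd4 10.78 ± 0.10 in SC-RbKO and 10.67 ± 0.12 in wild type testes. At an unadjusted limma p under 0.05, 1 of the 19 was higher in SC-Rb+/- against wild type, beside 3.67 percent of all genes. In SC-RbKO against SC-Rb+/- 2 were higher and 1 lower, beside 4.58 and 2.42 percent.

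Markers of other cell types were read in the same arrays, each list as the mean of its detected markers relative to the wild type mean. Pan-germ cell markers (17 of 22) spanned -0.18 to -0.12 in SC-RbKO, 0.00 to 0.28 in SC-Rb+/- and -0.10 to 0.26 in wild type testes. In SC-RbKO against wild type 14 of 17 were below 0, where 50.5 percent of all genes were above 0. Counts for the lists that follow are of this comparison too. In SC-RbKO against SC-Rb+/- 15 of 17 were below 0 (median -0.264), where 53 percent of all genes were above 0. There 5 of the 17 had an unadjusted limma p under 0.05, all lower, beside 2.42 percent of all genes. The pan-germ cell mean was 0.28 in SC-Rb+/- 7, 0.03 in SC-Rb+/- 5 and -0.002 in SC-Rb+/- 6. These counts are thus taken against an SC-Rb+/- mean that SC-Rb+/- 7, high in spermatocyte markers, raised. Peritubular and smooth muscle markers (11 of 12) spanned 0.09 to 0.24 in SC-RbKO, -0.03 to 0.11 in SC-Rb+/- and -0.06 to 0.10 in wild type testes, all 11 being above 0 in SC-RbKO against wild type. Leydig cell markers (6 of 12) spanned -0.59 to 0.09 in SC-RbKO, -0.79 to 0.08 in SC-Rb+/- and -0.54 to 0.30 in wild type testes, with 6 of 6 below 0 in SC-RbKO against wild type. Macrophage markers (14 of 18) spanned -0.25 to 0.11 in SC-RbKO, -0.18 to -0.01 in SC-Rb+/- and -0.20 to 0.23 in wild type testes, with 11 of 14 below 0. Spermatocyte markers spanned -0.33 to -0.10 in SC-RbKO testes, -1.02 to 0.95 in SC-Rb+/- testes and -0.33 to 0.81 in wild type testes, with 13 of 14 below 0. Wild type 12 read 0.81 for these markers and 0.26 for pan-germ cell markers. The other wild type arrays read -0.33 to 0.05 and -0.10 to -0.03. For both lists the count below 0 is thus taken against a wild type mean that wild type 12 raised. The low Neurog3 and Dppa4 readings of SC-RbKO testes stand beside these values, whose part in them was not tested.

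Of the pan-germ cell genes, Stk31, a germ cell kinase gene, read 5.15 ± 0.18 in SC-RbKO, 5.46 ± 0.24 in SC-Rb+/- and 5.57 ± 0.20 in wild type testes. Piwil2, of the piRNA pathway, read 9.60 ± 0.04 in SC-RbKO, 10.79 ± 0.41 in SC-Rb+/- and 10.21 ± 0.78 in wild type testes. Tdrd9, a helicase of the same pathway, read 8.46 ± 0.33 in SC-RbKO, 8.50 ± 0.51 in SC-Rb+/- and 8.96 ± 0.63 in wild type testes. All 3 had their lowest mean in SC-RbKO testes, and the order of the other groups differed between them. They were picked by the lowest p in SC-RbKO against wild type, so they do not stand for the list. Of the 17 markers, 3 were above 0 in that comparison, among them Dazl, with a mean of 11.37 in both groups. Striated muscle, epididymis and fat markers were detected for 2 of 12 genes, Adipoq and Defb48, which read 4.99 ± 0.43 and 4.88 ± 0.30 in SC-RbKO testes and 4.81 ± 0.39 and 5.03 ± 0.23 in wild type testes. Both lay near background, which limits these readings.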

How the data were processed

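Whole testis RNA was hybridised to Illumina MouseWG-6 v2 arrays, per the labels. The deposited unnormalized table holds a probe intensity and a detection p-value per array, per the file headers. The authors' deposited value table held intensities equal to a quantile normalization of these, as checked here, and served as an alternative. Intensities were background corrected with normexp (detection p-values, offset 16), quantile normalized and taken to log2 with limma 3.58.1 in R 4.3.3. Probes with a detection p under 0.05 on at least 3 of 12 arrays and 1 gene symbol were kept (17164 probes). The probe with the highest mean stood for each of 11076 genes. Of all probes, 34885 had 1 symbol, 18 several and 10378 none. One limma fit over all 12 arrays gave the 3 comparisons, with Benjamini-Hochberg adjustment over all genes and a threshold of 0.05, and the fit was tested on simulated data. Exact permutation tests were two-sided. Named genes were the 3 with the lowest p per list in SC-RbKO against wild type and the 5 most like the mean of the regulators (Riken, Gm, LOC and EST style names left out), Sox9 and Dazl were named as a tissue check, and Sox3, Foxo1 and Id4 after their values were seen. The regulators and lists were chosen with earlier results of these data known. The number of arrays limits precision. Figures were drawn with matplotlib 3.10.9.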

Additional observations from a re-analysis of the deposited data

Results flagged for a closer look

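Over 28 groups of 4 or 5 arrays checked for an array far from the others, 3 were marked, where chance marks about 1 in 20. Zbtb16 read 6.68 in wild type 12, against 7.05 to 7.16 in the other wild type arrays. Utf1 read 6.24 in wild type 8, against 5.56 to 5.72. The second Dppa4 probe read 5.76 in wild type 12, against 6.18 to 6.30.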

How the results depend on the processing

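No paired analysis was possible because each replicate number occurs in 1 genotype. No regulator passed the adjusted threshold under any alternative run. Neurog3 in SC-RbKO against SC-Rb+/- stayed between -0.51 and -0.36 and Zbtb16 in SC-Rb+/- against wild type between 0.23 and 0.39 over 25 alternatives each. The unadjusted limma p was under 0.05 in every alternative with more than 1 SC-Rb+/- array. Leaving out wild type 12, SC-Rb+/- 6 and SC-Rb+/- 7 together keeps only SC-Rb+/- 5 of its genotype, and gave the 0.23 of Zbtb16. The count of genes called, 0 in each comparison, was 0 to 0 (SC-RbKO against wild type), 0 to 173 (SC-Rb+/- against wild type), 0 to 62 (SC-RbKO against SC-Rb+/-) and 0 to 9 (any genotype) when 1 array was left out, the highest counts being without SC-Rb+/- 5. Without wild type 12, SC-Rb+/- 6 and SC-Rb+/- 7 together it was 2 for SC-RbKO against wild type and 1 for any genotype. The cause was not tested.

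Several differences changed sign, Nanos3 over the widest range. In SC-RbKO against wild type, leaving out 1 array gave -0.153 to 0.021 for Nanos3, -0.135 to 0.055 for Lin28a, -0.092 to 0.019 for Sall4 and -0.056 to 0.121 for Utf1. In SC-Rb+/- against wild type it gave -0.21 to 0.248 for Nanos2, -0.537 to 0.032 for Nanos3, -0.159 to 0.042 for Sall4, -0.271 to 0.063 for Sohlh1 and -0.055 to 0.035 for Dppa4. In SC-RbKO against SC-Rb+/- it gave -0.446 to 0.012 for Nanos2, -0.088 to 0.481 for Nanos3, -0.091 to 0.111 for Sall4 and -0.121 to 0.213 for Sohlh1. Without the 3 arrays that stood apart, SC-RbKO against wild type gave 0.004 for Nanos3, 0.04 for Lin28a and -0.049 for Utf1, SC-Rb+/- against wild type 0.315 for Nanos2, 0.578 for Nanos3, 0.039 for Sall4 and 0.213 for Sohlh1, and SC-RbKO against SC-Rb+/- -0.573 for Nanos3, -0.131 for Sall4 and -0.25 for Sohlh1. Array weights gave 0.043, 0.159 and -0.116 for Nanos3 in SC-RbKO against wild type, SC-Rb+/- against wild type and SC-RbKO against SC-Rb+/-, and 0.014 and -0.08 for Sohlh1 in the last 2. The mean of probes gave Sall4 0.101 in SC-RbKO and 0.043 in SC-Rb+/- against wild type. Utf1 in SC-RbKO against wild type was -0.002 without background correction, -0.001 with an offset of 50, -0.026 with median scaling, -0.002 on the authors' values and -0.018 with the array set as a block. In SC-Rb+/- against wild type, median scaling gave 0.003 for Nanos2 and -0.044 for Dppa4, and the array set as a block -0.02 for Dppa4. Dim probes such as those of Nanos2, Utf1 and Lin28a lay near background, which limits their differences.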

Other observations

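The ratio between probes of a gene was compared after the values were seen, in 15 exact permutation tests over 5 probe pairs. For Sall4 the second probe minus the brighter one was -1.31, -1.41, -1.58 and -0.96 in SC-RbKO testes, -1.46, -1.24 and -1.41 in SC-Rb+/- testes, and -1.68, -1.67, -1.61, -1.51 and -1.60 in wild type testes. SC-RbKO differed from wild type by 0.30 (exact two-sided permutation p = 0.016, adjusted over the 15 tests 0.13), with overlap. SC-Rb+/- differed from wild type by 0.24 (exact two-sided permutation p = 0.018, adjusted 0.13), without overlap. Neither passed the adjustment. The adjusted p of the other 4 pairs was 0.67 or higher.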
